A study of Mus musculus with 10 samples.

Results

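Expression of 8 genes of the inhibitory system was examined in whole hippocampus of High Exploration and Low Exploration mice. The genes were Gad1, Gad2, Slc32a1 and Slc6a11, which make, load and retrieve GABA, Lhx6, Dlx1 and Dlx2, which regulate interneuron identity, and Reln, which encodes the secreted protein reelin. Every probe set whose platform annotation gave a single gene symbol equal to one of these names was kept. This gave 16 of 34945 probe sets with a single symbol, for 8 of 18193 genes. Dlx1 and Dlx2 had 1 probe set each, 5 genes had 2, and Slc32a1 had 4.

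All mice were inbred female Balb c/J animals from Jackson that shared a day of birth, with no transgene and no drug treatment in the labels, and they had been ranked as adults by a composite of open field measures. The High Exploration group held 5 mice from the top of that ranking and the Low Exploration group held 5 from the bottom, and each mouse had its own 1-colour Affymetrix mouse array. The groups were therefore chosen by behaviour and not assigned. Values are MAS 5.0 signals, shown here as log2 signal, and arrays are numbered 1 to 5 within a group in order of deposit. The design text of the series describes a different experiment on microdissected CA1 tissue, so groups and tissue follow the sample labels.

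GABA is the main inhibitory transmitter of the hippocampus and is made from glutamate by glutamate decarboxylase, of which Gad1 and Gad2 encode the larger and the smaller form. The vesicular transporter encoded by Slc32a1 fills synaptic vesicles with GABA, and plasma membrane transporters, among them the Slc6a11 product GAT-3, remove it from the extracellular space. Hippocampal interneurons arise in the embryonic ganglionic eminences, where the homeodomain factors Dlx1, Dlx2 and Lhx6 direct their production and migration. Reelin guides neuronal positioning during development, and in the adult hippocampus it is released by interneurons and by persisting Cajal-Retzius cells.

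The promoters of Gad1, Gad2 and Reln are shown because the within-array comparisons described below set Gad1 against Gad2 and the probe sets of Gad1 and of Reln against each other. Each runs from 250 bases before to 50 bases after a transcript start listed in RefSeq (GRCm38.p6), which for Gad1 and Gad2 lies inside the RefSeq gene span given below, and capitals mark the GC box GGGCGG or its reverse complement CCGCCC. The Gad1 window is chr2:70561879-70562178 on the plus strand, the Gad2 window is chr2:22622077-22622376 on the plus strand, and the Reln window is chr5:22344656-22344955 on the minus strand.
Gad1: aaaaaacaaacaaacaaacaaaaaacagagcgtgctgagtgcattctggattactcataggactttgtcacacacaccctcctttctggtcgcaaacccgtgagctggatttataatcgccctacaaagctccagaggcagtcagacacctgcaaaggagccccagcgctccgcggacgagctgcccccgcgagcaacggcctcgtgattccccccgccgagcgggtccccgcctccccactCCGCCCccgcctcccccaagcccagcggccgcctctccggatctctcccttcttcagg
Gad2: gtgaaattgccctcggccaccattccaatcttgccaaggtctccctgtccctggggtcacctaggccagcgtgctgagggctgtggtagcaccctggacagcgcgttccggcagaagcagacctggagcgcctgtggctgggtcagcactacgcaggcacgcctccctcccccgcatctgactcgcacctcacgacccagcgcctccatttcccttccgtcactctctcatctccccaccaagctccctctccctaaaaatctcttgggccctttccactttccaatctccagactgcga
Reln: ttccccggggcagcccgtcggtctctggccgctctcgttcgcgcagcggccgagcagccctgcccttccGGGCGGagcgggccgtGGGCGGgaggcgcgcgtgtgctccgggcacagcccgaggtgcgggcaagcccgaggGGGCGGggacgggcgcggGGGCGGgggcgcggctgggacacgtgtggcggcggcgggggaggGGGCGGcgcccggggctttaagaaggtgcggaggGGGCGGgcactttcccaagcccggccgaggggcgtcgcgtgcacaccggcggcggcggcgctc
The Reln window was 80.7% G and C and held 6 GC boxes. The Gad1 window was 60.0% G and C with 1 GC box, and the Gad2 window was 61.3% G and C with none. Over all 32817 promoters of the same length the median was 52.7% G and C, and 35.6% held a GC box. The TATA box letters TATAAA (reverse TTTATA) occurred once in the Gad1 window, not in the other 2 windows, and in 13.6% of all promoters. The homeodomain core TAATTA, its own reverse complement, was in no window of the 8 genes and in 5.30% of all promoters. These matches describe letters in a window and not bound sites.

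To ask whether expression of inhibitory genes differs with exploration, each probe set was compared between the groups with limma on log2 signal over all 45037 probe sets. None of the 16 member probe sets passed an adjusted p of 0.05, and their limma adjusted p ranged from 0.109 to 0.979. The brighter Gad1 and Reln probe sets read higher on average in High Exploration mice, while the dimmer probe sets of the same genes read lower. Over all probe sets 0.0711% passed, which is 3 higher and 29 lower. At an unadjusted p under 0.05, 0 of the 16 members were higher and 2 were lower, against 4.48% higher and 16.8% lower over all probe sets. The groups did not overlap for 0 members that were higher and for 2 that were lower, beside 1.17% and 4.84% of all probe sets.

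The members have to be read beside a shift of the whole array. The median difference, High minus Low, was −0.47 on the log2 scale over all probe sets and −0.29 over the members, of which 6 were above 0 and 10 below. Of all probe sets 69.0% were below 0. By decile of mean signal, the median difference ran between −0.65 and −0.47 in the 8 lower deciles, and was −0.17 in the ninth and 0.43 in the highest. Of the member probe sets 3 were in the highest decile (Gad1 1416561_at, Gad2 1429589_at and Reln 1449465_at), 8 lay above the midpoint of all probe sets by mean signal and 8 did not. On the log2 scale, the control transcripts added at hybridisation averaged 13.6 ± 0.31 in High Exploration mice, against 14.2 ± 0.29 in Low Exploration mice (SD, n = 5 per group, exact 2-sided permutation p = 0.0159). The poly-A controls, which are added before labelling, averaged 12.5 ± 0.47 in High Exploration mice, against 14.1 ± 0.44 in Low Exploration mice (SD, n = 5 per group, exact permutation p = 0.00794). The log2 ratio of the 3′ to the 5′ Gapdh probe set was 4.72 ± 0.48 in High Exploration mice, against 3.72 ± 0.23 in Low Exploration mice (SD, n = 5 per group, exact permutation p = 0.0159), and the same ratio for actin was 5.30 ± 0.58 in High Exploration mice, against 4.97 ± 0.75 in Low Exploration mice (exact permutation p = 0.484). The part of these technical measures in the member differences was not tested.

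**Figure D1:**
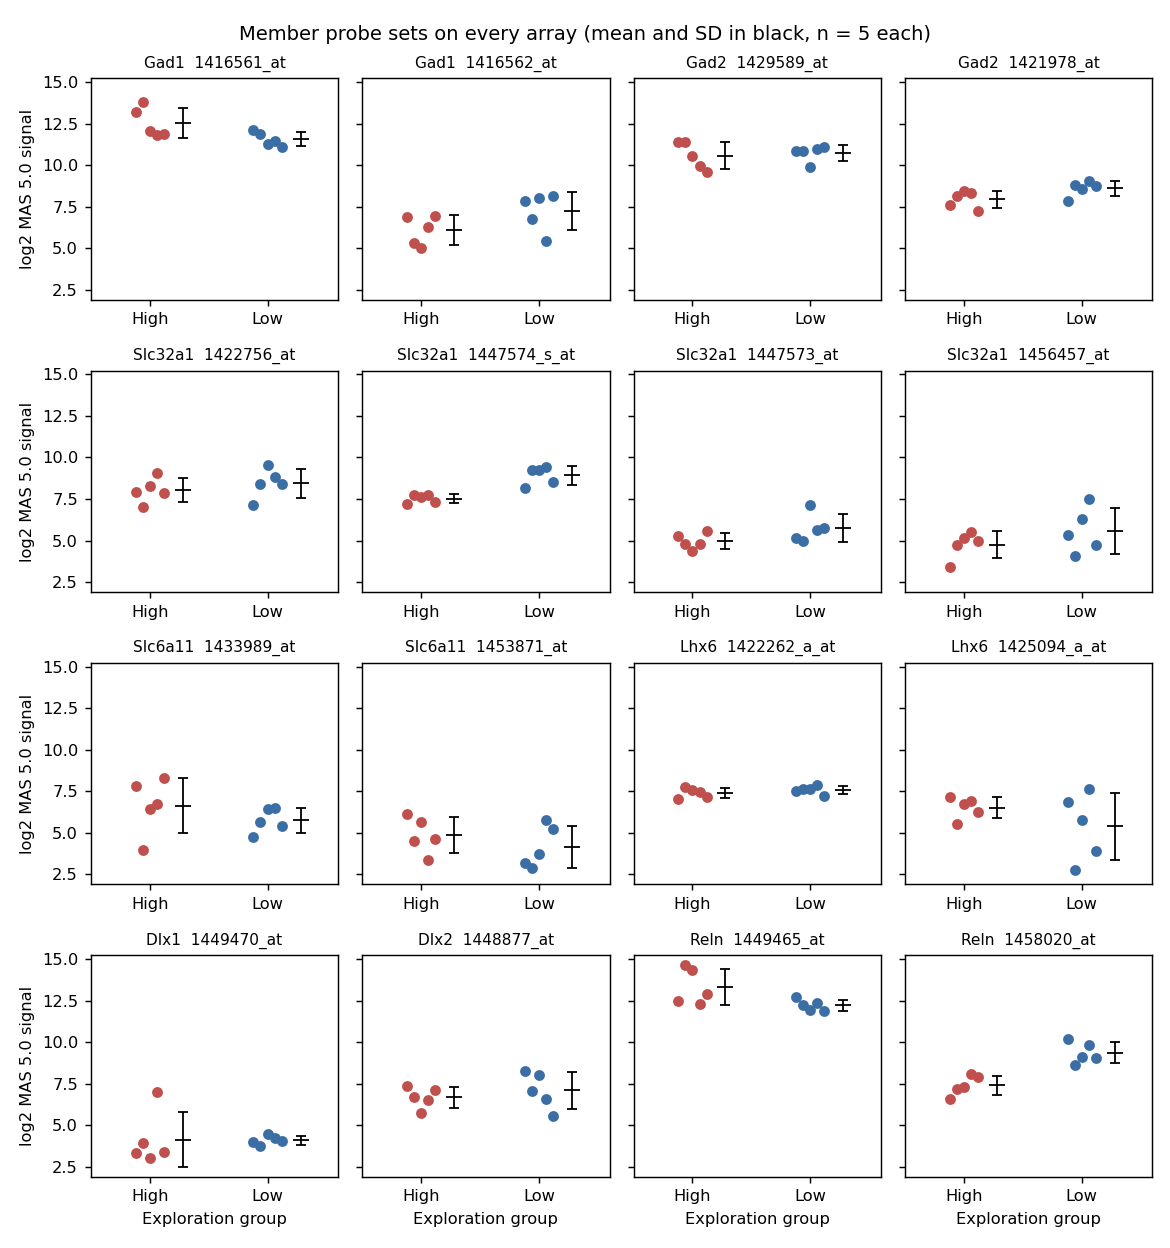
Log2 MAS 5.0 signal of the 16 member probe sets on every array, with High Exploration left of Low Exploration, 1 point per mouse and the mean with SD in black (n = 5 each). The groups stand apart without overlap only for Slc32a1 1447574_s_at and Reln 1458020_at, both lower in High Exploration.

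GABA synthesis was read from both decarboxylase genes. Gad1, at chr2:70561303-70602014 on the plus strand (GRCm38.p6), encodes the form that makes most of the cell's GABA. Its brighter probe set, 1416561_at, had log2 signals of 13.23, 13.81, 12.04, 11.79 and 11.89 in High Exploration mice 1 to 5, against 12.15, 11.86, 11.26, 11.46 and 11.10 in Low Exploration mice 1 to 5. High Exploration mice 1 and 2 were above every Low Exploration mouse, and the other 3 lay within the Low Exploration range. The means were 12.55 ± 0.91 in High Exploration mice, against 11.56 ± 0.43 in Low Exploration mice (SD, n = 5 per group), a difference of 0.99 ± 0.49 (SE) or 1.98-fold (limma adjusted p = 0.262, exact permutation p = 0.0635). The 95% interval was −0.07 to 2.05, and the median of its decile was 0.43. Without High Exploration mouse 2 the difference was 0.67.

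Although designed from the same sequence record as the brighter one, the dimmer Gad1 probe set, 1416562_at, ran the other way. Its log2 signals were 6.89, 5.28, 5.02, 6.26 and 6.95 in High Exploration mice, against 7.82, 6.74, 8.02, 5.46 and 8.16 in Low Exploration mice. Low Exploration mice 1, 3 and 5 were above every High Exploration mouse, and mice 2 and 4 of that group lay inside the High Exploration range. The difference was −1.16 ± 0.61 (SE; limma adjusted p = 0.288, exact permutation p = 0.111), with a decile median of −0.61. Gad1 lies beside a long noncoding transcript, Gad1os, whose annotated span (chr2:70489940-70563357) overlaps the start of Gad1. Its probe set averaged 7.07 ± 1.21 in High Exploration mice, against 6.60 ± 1.19 in Low Exploration mice (SD, n = 5 per group; difference 0.46, limma adjusted p = 0.713).

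Gad2, at chr2:22621015-22693877 on the plus strand, encodes the form found mainly at nerve terminals. The brighter probe set, 1429589_at, had log2 signals of 11.37, 11.39, 10.55, 9.94 and 9.58 in High Exploration mice, against 10.83, 10.84, 9.90, 10.98 and 11.08 in Low Exploration mice. High Exploration mice 1 and 2 were again the highest, as for Gad1, while mice 4 and 5 were at the low end. The difference was −0.16 ± 0.47 (SE; limma adjusted p = 0.866), with a 95% interval of −1.18 to 0.87, and it was 0.0895 without High Exploration mouse 5. Besides the deposited scale, 3 other scalings of the arrays were tried, namely equal medians, quantile normalisation and equal hybridisation controls, and the Gad2 difference turned positive under the first (0.38) and the last (0.45). The dimmer probe set, 1421978_at, averaged 7.94 ± 0.51 in High Exploration mice, against 8.61 ± 0.45 in Low Exploration mice (SD, n = 5 per group; difference −0.66, limma adjusted p = 0.356, exact permutation p = 0.0714).

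Since signals of a single array share its scaling, the brighter Gad1 and Gad2 probe sets were also compared within each array. Gad1 minus Gad2 was 1.86, 2.42, 1.49, 1.85 and 2.31 log2 units in High Exploration mice 1 to 5, against 1.32, 1.02, 1.36, 0.47 and 0.03 in Low Exploration mice 1 to 5. Every High Exploration mouse was above every Low Exploration mouse. How often the groups stand apart for pairs of different genes was not computed, so this separation has no background share beside it. The means were 1.98 ± 0.38 in High Exploration mice, against 0.84 ± 0.58 in Low Exploration mice (SD, n = 5 per group), a difference of 1.14, or 2.21-fold (exact 2-sided permutation p = 0.00794, the smallest that 252 assignments allow). Leaving out each mouse in turn gave differences between 0.94 and 1.27. The result depended on the choice of probe set. It was 0.33 (exact permutation p = 0.540) when both probe sets of each gene were averaged, 1.65 (p = 0.0317, exact permutation) in a choice made after the data were seen, for the brighter Gad1 with the dimmer Gad2 probe set, and −0.999 and −0.492 (p = 0.278 and p = 0.603, exact permutation) in 2 further such choices, for the dimmer Gad1 with the brighter and the dimmer Gad2 probe set. A difference within an array shows that 2 probe sets changed unequally and not which of them changed. It removes a constant scaling of the array but not a shift that depends on signal level. Mean log2 signal was 12.06 for Gad1 1416561_at (percentile 96.8) and 10.65 for Gad2 1429589_at (percentile 92.6), both in the highest decile, which ran from 10.17 to 18.11. The part of signal level in the Gad1 minus Gad2 difference was not tested.

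GABA loading and uptake were read from Slc32a1 and Slc6a11. All 4 probe sets of Slc32a1 (chr2:158607260-158615747, plus strand), the vesicular GABA transporter, were below 0 as deposited. Probe set 1447574_s_at had log2 signals of 7.18, 7.76, 7.65, 7.75 and 7.30 in High Exploration mice, against 8.15, 9.26, 9.23, 9.43 and 8.51 in Low Exploration mice. No High Exploration mouse reached the lowest Low Exploration mouse. The means were 7.53 ± 0.27 in High Exploration mice, against 8.92 ± 0.55 in Low Exploration mice (SD, n = 5 per group), a difference of −1.39 ± 0.40 (SE) or 0.382-fold (limma adjusted p = 0.137, exact permutation p = 0.00794), where the decile median was −0.55. Under the 3 other scalings this difference was −0.91 to −0.78, with limma adjusted p of 0.317 to 0.411.

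The other Slc32a1 probe sets overlapped between the groups. Probe set 1422756_at averaged 8.03 ± 0.74 in High Exploration mice, against 8.45 ± 0.87 in Low Exploration mice (SD, n = 5 per group; difference −0.41, limma adjusted p = 0.659), and its difference turned positive, to 0.07 to 0.19, under each of the 3 other scalings. Probe sets 1447573_at and 1456457_at had differences of −0.78 and −0.82 (limma adjusted p = 0.354 and 0.469) and mean signals in the lowest 2 deciles. Probe sets 1447573_at and 1447574_s_at were designed from the same sequence record, so they are not separate evidence on the transcript. Of the Slc32a1 probe sets only 1422756_at was designed from a RefSeq transcript record.

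Slc6a11 (chr6:114131241-114249886, plus strand) encodes GAT-3, a transporter found mostly on astrocytes. Its brighter probe set, 1433989_at, had log2 signals of 7.82, 3.95, 6.46, 6.71 and 8.28 in High Exploration mice, against 4.73, 5.65, 6.45, 6.52 and 5.42 in Low Exploration mice. The High Exploration mice spanned the whole Low Exploration range on both sides. The difference was 0.89 ± 0.73 (SE; limma adjusted p = 0.485), and that of the other probe set, 1453871_at, was 0.69 ± 0.68 (SE; limma adjusted p = 0.567). The first was 0.48 without High Exploration mouse 5 and 1.56 without High Exploration mouse 2, and the second was 0.37 without High Exploration mouse 1 and 0.18 with a floor on low signals. Both lay in the lowest 3 deciles of mean signal, where decile medians were −0.65 to −0.62.

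The probe sets of the 3 transcription factors overlapped between the groups, and none passed the threshold. Lhx6 (chr2:36081950-36105992, minus strand) marks interneurons of the medial ganglionic eminence, the source of parvalbumin and somatostatin cells. Its probe set 1422262_a_at varied little within the groups, at 7.41 ± 0.31 in High Exploration mice, against 7.57 ± 0.24 in Low Exploration mice (SD, n = 5 per group). The difference was −0.17 with a 95% interval of −0.95 to 0.61 (limma adjusted p = 0.809), and it was 0.37 to 0.44 under the 3 other scalings. The other probe set, 1425094_a_at, averaged 6.51 ± 0.64 in High Exploration mice, against 5.40 ± 2.03 in Low Exploration mice (SD, n = 5 per group; limma adjusted p = 0.440). The lowest values were those of Low Exploration mouse 2, at 2.78, and mouse 5, at 3.90, and without Low Exploration mouse 2 the difference of 1.11 became 0.46.

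Dlx1 and Dlx2 are neighbouring genes on chromosome 2 (chr2:71528113-71533981, plus strand, and chr2:71543408-71546754, minus strand) that act early in the interneuron lineage and stay on in some adult interneurons. The Dlx1 probe set, 1449470_at, was at percentile 2.07 of mean signal over all probe sets. Its log2 signals were 3.32, 3.93, 3.01, 6.99 and 3.39 in High Exploration mice, against 3.97, 3.76, 4.46, 4.20 and 4.07 in Low Exploration mice. High Exploration mouse 4 stood apart from all other mice, and without it the difference of 0.04 (limma adjusted p = 0.979) became −0.68. The Dlx2 probe set, 1448877_at, averaged 6.67 ± 0.63 in High Exploration mice, against 7.09 ± 1.1 in Low Exploration mice (SD, n = 5 per group; difference −0.42, limma adjusted p = 0.675), and its difference was 0.11 to 0.18 under the 3 other scalings. The antisense transcript Dlx1as (chr2:71530638-71537891), which overlaps Dlx1, averaged 9.63 ± 0.65 in High Exploration mice, against 9.15 ± 0.26 in Low Exploration mice (SD, n = 5 per group; difference 0.48, limma adjusted p = 0.501).

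Reln (chr5:21884454-22344705, minus strand) had the widest split between its probe sets. The brighter one, 1449465_at, had log2 signals of 12.50, 14.62, 14.35, 12.31 and 12.88 in High Exploration mice, against 12.73, 12.21, 11.93, 12.33 and 11.86 in Low Exploration mice. High Exploration mice 2, 3 and 5 were above every Low Exploration mouse, and mice 1 and 4 were within that range. The means were 13.33 ± 1.08 in High Exploration mice, against 12.21 ± 0.35 in Low Exploration mice (SD, n = 5 per group), a difference of 1.12 ± 0.52 (SE) or 2.17-fold (limma adjusted p = 0.240, exact permutation p = 0.0476). The difference was 0.80 without High Exploration mouse 2.

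The dimmer Reln probe set, 1458020_at, had log2 signals of 6.60, 7.15, 7.28, 8.06 and 7.87 in High Exploration mice, against 10.19, 8.64, 9.09, 9.82 and 9.06 in Low Exploration mice. It was designed from a different sequence record than the brighter one, whose record is a RefSeq transcript. Where each probe set lies in the Reln transcript was not determined. All High Exploration mice were below all Low Exploration mice. The means were 7.39 ± 0.59 in High Exploration mice, against 9.36 ± 0.63 in Low Exploration mice (SD, n = 5 per group), a difference of −1.97 ± 0.45 (SE) or 0.256-fold, with a 95% interval of −2.94 to −0.99 (limma adjusted p = 0.109, exact permutation p = 0.00794). The median of its decile was −0.55, and under the 3 other scalings the difference was −1.54 to −1.36.

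**Figure D2:**
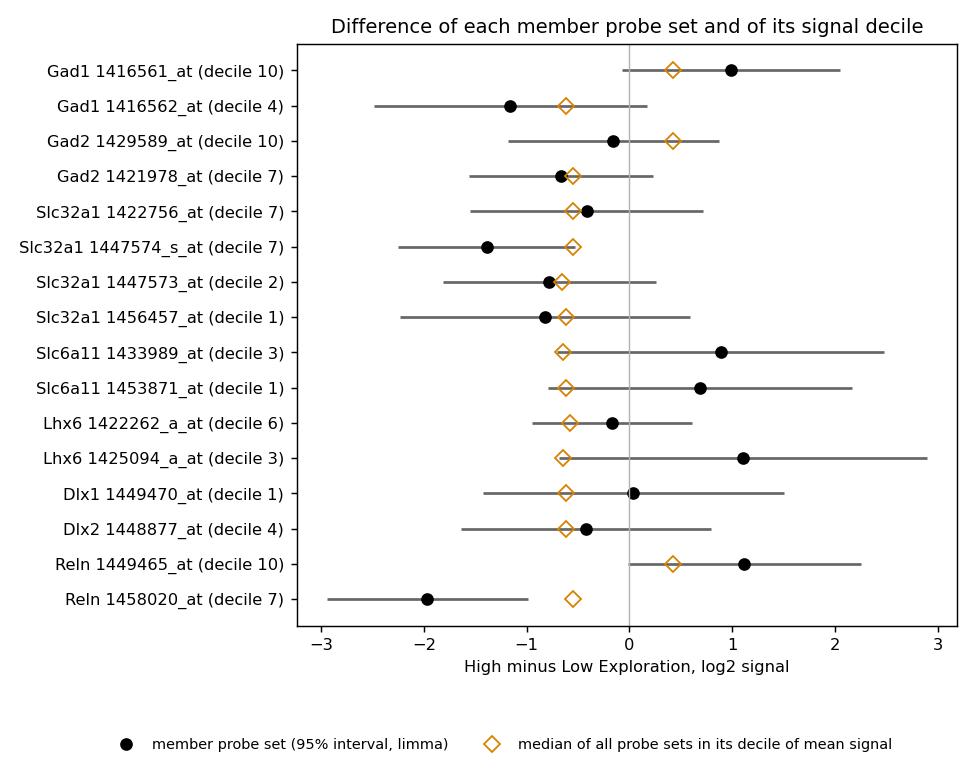
Difference in log2 signal, High minus Low Exploration, of each member probe set with limma's 95% interval (filled points and lines), beside the median difference of all probe sets in the same decile of mean signal (open diamonds). Gad1 and Reln each have a probe set near 1 and another below −1, and the intervals of 2 probe sets, Reln 1458020_at and Slc32a1 1447574_s_at, exclude 0.

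Within each array, the brighter minus the dimmer Reln probe set was 5.89, 7.47, 7.08, 4.25 and 5.01 log2 units in High Exploration mice, against 2.54, 3.56, 2.84, 2.52 and 2.81 in Low Exploration mice. All 5 High Exploration mice were above all 5 Low Exploration mice. The means were 5.94 ± 1.36 in High Exploration mice, against 2.85 ± 0.42 in Low Exploration mice (SD, n = 5 per group), a difference of 3.08, or 8.48-fold (exact permutation p = 0.00794). Adjusted over all 30372 pairs of probe sets of a single gene in the table, this p was 0.203 (Benjamini-Hochberg). That was also the smallest adjusted p of any pair, so no pair passed the threshold. The unadjusted p is the smallest this permutation test allows, and too few pairs reached it for any to pass once adjusted. The brighter minus the dimmer Gad1 probe set averaged 6.47 ± 1.39 in High Exploration mice, against 4.33 ± 1.28 in Low Exploration mice (SD, n = 5 per group), a difference of 2.14 or 4.42-fold (exact permutation p = 0.0397, adjusted p = 0.303 over all pairs).

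The 11 member pairs came from 6 genes, and the 6 pairs of Slc32a1 share probe sets. The groups did not overlap for 1 pair with the brighter minus dimmer difference higher in High Exploration, against 2.84% of all pairs, and for 0 pairs in the other direction, against 1.08% of all pairs. Over all pairs, which were not matched on signal level, the median difference was 0.25 and 58.6% were above 0. The Gad1 and Reln pairs each set a probe set of the highest decile, with a decile median of 0.43, against a dimmer one. The decile median of the dimmer probe set was −0.61 for Gad1 and −0.55 for Reln. The part of signal level in these pair differences was not tested. Gad2 had a difference of 0.51 (exact permutation p = 0.302), and Slc32a1 1422756_at minus 1447574_s_at had 0.98 (exact permutation p = 0.0556). The other pairs of Slc32a1, Slc6a11 and Lhx6 had exact permutation p of 0.222 to 0.944.

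**Figure D3:**
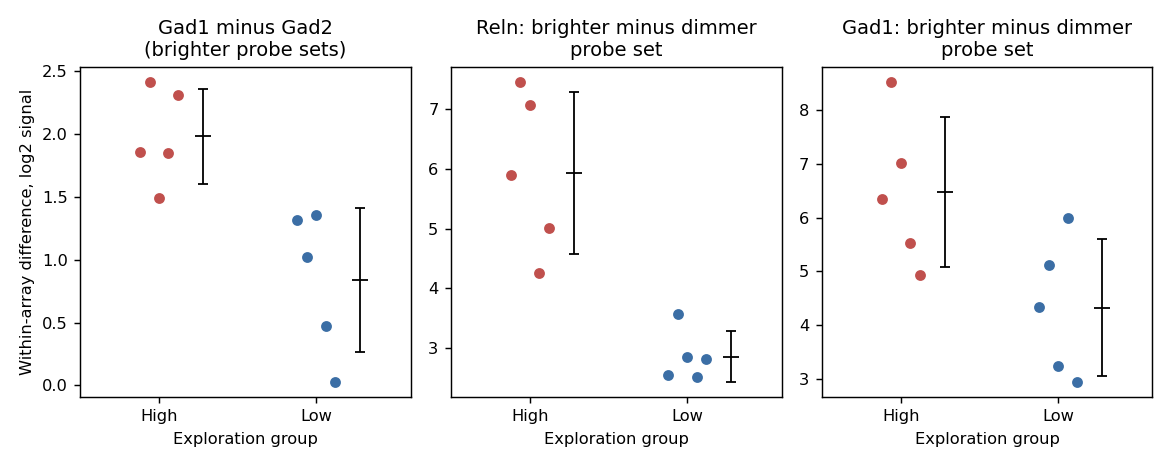
Within-array differences of log2 signal with High Exploration left of Low Exploration, 1 point per mouse and the mean with SD in black (n = 5 each): Gad1 minus Gad2 for the brighter probe sets, and the brighter minus the dimmer probe set of Reln and of Gad1. The groups do not overlap in the first and second panels, and overlap in the third.

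The wider GABA pathway was read from the brightest probe set of each gene, for which the median difference over all genes was −0.30, with 6.46% higher and 12.7% lower at an unadjusted p under 0.05. No gene of any list below passed limma's adjusted threshold. The median over all genes was not matched on signal level. The median percentile of mean signal was 64.2 for the list of other interneuron transcription factors and 83.3 to 88.0 for the rest of the pathway lists. Abat was in the ninth decile and Aldh5a1 and Slc12a5 in the highest, where decile medians were −0.17 and 0.43. The part of signal level in the list differences was not tested. Among genes for GABA breakdown, other GABA transporters and chloride carriers, 6 of 7 were measured, 2 were higher and 0 lower at that unadjusted p, and the median difference was 0.39, or 0.06 when all probe sets of a gene were averaged. With equal medians or equal hybridisation controls every list median moved up by about the shift of all probe sets (0.54 or 0.61), which turned the interneuron transcription factor, granule and striatal medians positive, and the thalamic median only with equal hybridisation controls. Abat, which encodes the transaminase that breaks GABA down, averaged 10.19 ± 0.88 in High Exploration mice, against 8.25 ± 1.06 in Low Exploration mice (SD, n = 5 per group), a difference of 1.94 (limma adjusted p = 0.144), while its other probe set differed by −1.27. Aldh5a1, which encodes the next enzyme of that route, differed by 1.44 (limma adjusted p = 0.146). Slc12a5, which encodes the neuronal chloride exporter KCC2, differed by 0.98 (limma adjusted p = 0.247) and its other probe set by −1.15.

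Of the GABA-B receptor and inhibitory scaffold genes 6 of 8 were measured, 2 were higher and 0 lower, with a median of 0.18. Gabbr1, which encodes a GABA-B receptor subunit, averaged 12.87 ± 0.32 in High Exploration mice, against 11.79 ± 0.35 in Low Exploration mice (SD, n = 5 per group), and the groups did not overlap (difference 1.08, limma adjusted p = 0.159). Over all probe sets, not only the brightest of each gene, 1.17% were higher and 4.84% lower in High Exploration without overlap. The other Gabbr1 probe sets differed by 0.88, 0.10 and 0.26. Slitrk3, a postsynaptic adhesion gene of inhibitory synapses, differed by 1.43 (limma adjusted p = 0.196), and Shisa7, an auxiliary gene of GABA-A receptors, by −0.69 (limma adjusted p = 0.317).

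Among other interneuron transcription factors 14 of 17 were measured, 0 were higher and 2 lower, and the median was −0.30. Sox6, which acts after Lhx6 in the same lineage, differed by −1.20 without overlap of the groups (limma adjusted p = 0.179), while its other probe sets differed by −1.37, 0.09 and 1.97. Npas3 differed by −1.20 and Satb1, another gene of that lineage, by 1.17 (limma adjusted p = 0.222 and 0.241). The other probe sets of Npas3 differed by −1.31 to 0.53 and those of Satb1 by −1.93, −1.78, −1.58 and 1.26. Of 16 interneuron calcium-binding, peptide and surface genes, all measured, 1 was higher and 0 lower, with a median of 0.29 that became −0.09 when all probe sets of a gene were averaged. Vip, the peptide of a class of interneurons, averaged 12.32 ± 0.55 in High Exploration mice, against 11.03 ± 0.34 in Low Exploration mice (SD, n = 5 per group), without overlap (difference 1.29, limma adjusted p = 0.146). Erbb4, the neuregulin receptor of interneurons, differed by −1.23 and Lamp5, a marker of neurogliaform cells, by −1.33 (limma adjusted p = 0.255 and 0.265). The parvalbumin gene Pvalb, the somatostatin gene Sst and the calretinin gene Calb2 differed by 1.04, −0.79 and −1.16 (limma adjusted p = 0.379, 0.556 and 0.298).

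The receptors and signal transducers of reelin, all 10 of 10 measured, had 0 genes higher and 0 lower, with a median of 0.06 that became −0.37 when all probe sets of a gene were averaged. Dab1, the adaptor that reelin signalling phosphorylates, averaged 10.44 ± 0.21 in High Exploration mice, against 11.34 ± 1.00 in Low Exploration mice (SD, n = 5 per group; difference −0.90, limma adjusted p = 0.302). The kinase gene Src differed by 1.04 and the adaptor gene Crk by 0.79 (limma adjusted p = 0.338 and 0.372). The other probe set of Src differed by −1.02, those of Crk by −0.89 to 0.26 and those of Dab1 by −1.54 to 0.54. All 5 Cajal-Retzius markers were below 0, with 0 higher and 2 lower, led by Trp73 (−2.12, limma adjusted p = 0.136) and Lhx1 (−1.52, limma adjusted p = 0.201). The other probe sets of Trp73 and Lhx1 differed by −0.57 and 0.57. The list median of −1.52 became −0.49 when all probe sets of a gene were averaged. All 5 markers lay in deciles 3 to 6 of mean signal, where decile medians were −0.64 to −0.57. Their summed signal was 266 to 898 in High Exploration and 598 to 1693 in Low Exploration. The part of these cells in the Reln values was not tested, and in whole tissue fewer cells of a type cannot be told apart from less RNA per cell.

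**Figure D4:**
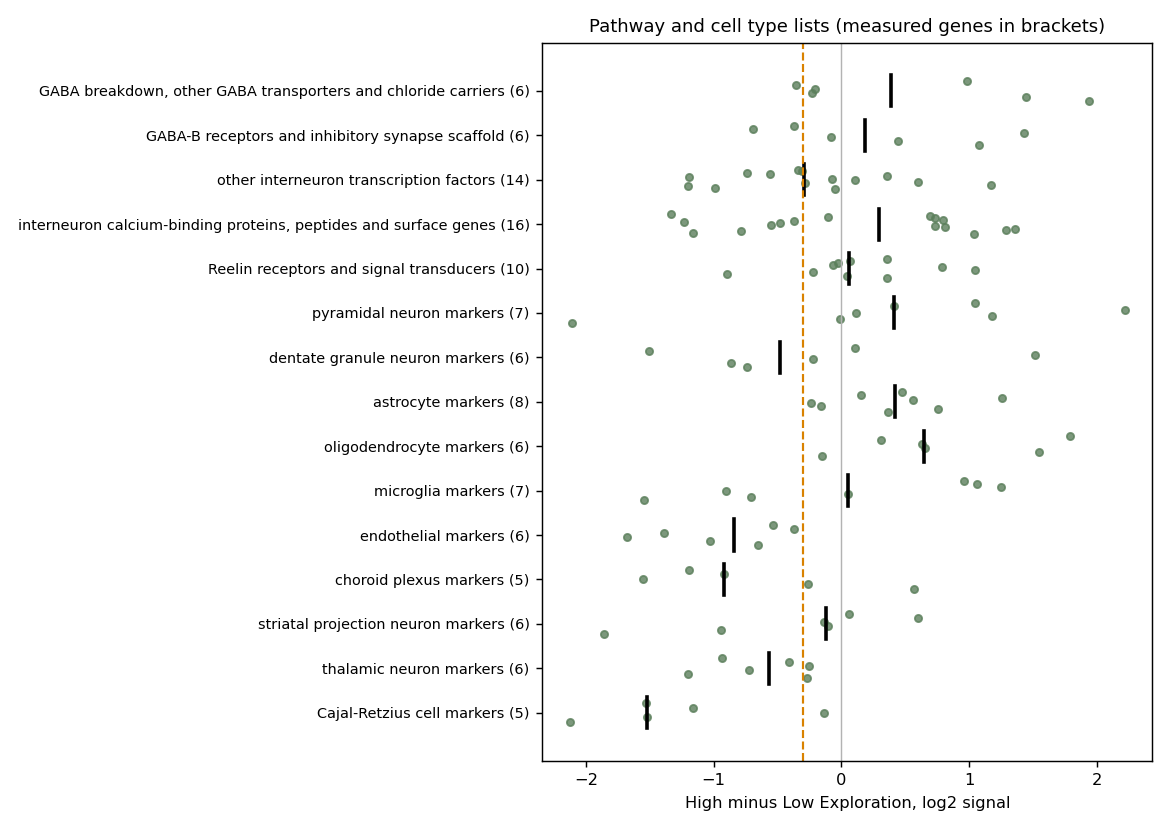
Difference in log2 signal, High minus Low Exploration, of the brightest probe set of each measured gene (points) with the list's median (black bars), for 5 pathway lists and 10 cell type lists. The dashed line is the median over all genes, −0.30, and list medians run from −1.52 for Cajal-Retzius markers to 0.64 for oligodendrocyte markers.

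Among markers of the labelled tissue, the pyramidal gene Camk2a was in the highest decile and Prox1, of granule cells, in decile 7. Fibcd1 of the pyramidal list was in decile 1 and C1ql2 of the granule list in decile 4. The median percentile of mean signal was 90.5 for the pyramidal list, 84.0 for granule, 68.8 for thalamic and 64.6 for striatal. No detection calls were used, so these levels do not show that a cell type was present. The pyramidal, astrocyte and oligodendrocyte lists had medians of 0.41, 0.42 and 0.64, which were 0.41, −0.21 and 0.38 when all probe sets of a gene were averaged, with 2, 1 and 1 genes higher and 1, 0 and 0 lower at an unadjusted p under 0.05. By smallest p, the pyramidal genes were Slc17a7 at −2.11 and Neurod6 at 1.18, and the glial genes were Gja1 at 1.25, Aqp4 at 0.75, Cldn11 at 1.79 and Mobp at 0.66. Granule and microglial lists had medians of −0.48 and 0.05, with Calb1 at 1.51, Tdo2 at −1.51, Cx3cr1 at −1.55 and C1qb at −0.90, although 4 of the 7 microglial genes were above 0, among them C1qc at 1.25 and Aif1 at 1.06. The medians of the endothelial, choroid plexus, thalamic and striatal lists were −0.84, −0.92, −0.57 and −0.12, with Flt1 at −1.68, Kdr at −1.39, Kl at −1.55, Clic6 at −1.19, Ttr at 0.57 (0.97 to 1.35 for its other probe sets), Rora at −1.20, Prkcd at −0.72, Ppp1r1b at −1.86 and Drd1 at −0.94. Summed striatal signal was 1979 to 4714 in High Exploration and 1974 to 3348 in Low Exploration, so the ranges overlapped. Among the named cell type genes, the groups did not overlap for Calb1, Gja1 and Cldn11, higher in High Exploration, and for Slc17a7 and Tdo2, lower. Of the 20 cell type genes named by smallest p, 15 had another probe set, and for 11 of these at least 1 such probe set had the opposite sign. The part of tissue composition in the member differences was not tested.

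Likeness to the brightest probe sets of Gad1, Gad2 and Slc32a1 was described by Pearson's r over the 10 arrays after each group mean was removed, among 18193 genes. The genes nearest to Gad1 were Ncoa4 (r = 0.979), Zranb2 (r = 0.957) and Rtn4 (r = 0.953). Those nearest to Gad2 were Gm4924 (r = 0.948), Ifna11 (r = 0.942) and Osbpl9 (r = 0.931), and those nearest to Slc32a1 were Cfap53 (r = 0.974), Terf2 (r = 0.950) and Sh2d3c (r = 0.933). Gm4924, Ifna11 and Cfap53 had low signals, at percentiles 23.8, 26.9 and 21.0 of mean signal, and the other nearest genes were at percentile 79.5 or above. All points share the scaling of their array, and the genes were picked as the highest r among all genes, so these r values are a description.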

How the data were processed

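The authors deposited a table of linear signal intensities, with a value for each probe set on each array. According to the methods they were computed with MAS 5.0 in Expression Console, which corrects for background and mismatch probes and scales each array by a constant, so an array's bright transcripts affect the readings of its other probe sets. The trimmed mean of every deposited array (2% off each end) was 500, and the shape of the distribution was left as it was. The methods state that RNA was amplified in a double round, and the labels state only the standard Affymetrix labelling, so how these RNAs were amplified is unsettled. Array data give no read depth, and 5 arrays per group limit the precision.

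Of 45101 probe sets, 64 controls were set aside. Log2 signal of the other 45037, unfiltered, was fitted with limma 3.58.1 (lmFit and eBayes, R 4.3.3), with Benjamini-Hochberg adjustment over all and a threshold of 0.05. Single values per array were compared by exact 2-sided permutation over 252 assignments. Pairs of probe sets of a gene were adjusted over all 30372 pairs in the table, in place of the members' pairs alone as first planned. Symbols came from the platform annotation, and all 16 member probe sets matched RefSeq (GRCm38.p6) by Entrez identifier, the source of positions and promoters. Where the sensitivity of the comparison matters, limma was tested on simulated data for the 45037 probe sets. Among 50 simulated log2 changes of each size it recovered 0 of size 1, 3 of size 2, 19 of size 3 and 36 of size 4. The simulated probe sets varied independently and had no shift of the whole array, so these counts need not hold for the real arrays.

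The members and gene lists were chosen with earlier results of these data known. Named genes were all member probe sets, the 3 genes with the smallest limma p of each pathway list, 2 of each cell type list, and the 3 genes most like Gad1, Gad2 and Slc32a1. Pvalb, Sst, Calb2, Camk2a, Prox1, Fibcd1, C1ql2, Ttr, C1qc and Aif1 were added after their values were seen. Alternatives were median centring, quantile normalisation, scaling to equal hybridisation controls, a floor at the 10th percentile of signal (23.0), the same value as a pseudocount, a filter above the median mean, an intensity trend, array weights, and leaving out each array. Array numbers give deposit order only, so nothing pairs the groups.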

Additional observations from a re-analysis of the deposited data

Results flagged for a closer look

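Gaps between a mouse and the rest of its group were measured for 56 groups of 5 values, and 2 groups exceeded the limit for Dixon's ratio (0.71), where chance alone gives about 1 in 20. Low Exploration mouse 3 had a log2 signal of 9.90 (9.8971) for Gad2 1429589_at, while the other 4 mice of its group lay between 10.83 and 11.08. High Exploration mouse 4 had a log2 signal of 6.99 (6.9944) for Dlx1 1449470_at, while the other 4 mice of its group lay between 3.01 and 3.93.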

How the results depend on the processing

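No member probe set passed an adjusted p of 0.05 under any alternative run, and 2 to 4 member probe sets had an unadjusted p under 0.05 in each. The limma count over all probe sets, 32 as deposited, was 1 with equal medians, 1 with quantile normalisation, 1 with equal hybridisation controls (1 higher and 0 lower in each, against 3 higher and 29 lower), 58 with a pseudocount, 3 with the filter, 2 with an intensity trend, and 0 to 50 when arrays were left out. It was 0 without High Exploration mouse 1, 2 or 4 or Low Exploration mouse 2, 4 or 5, 9 without High Exploration mouse 3, 50 without High Exploration mouse 5, and 6 and 2 without Low Exploration mice 1 and 3. These scalings moved the median of all probe sets from −0.47 by 0.54, 0.45 and 0.61, and 10, 9 and 10 of 16 members were then above 0. With equal medians and equal hybridisation controls, differences turned to 0.38 and 0.45 for Gad2 1429589_at, 0.12 and 0.19 for Slc32a1 1422756_at, 0.37 and 0.44 for Lhx6 1422262_a_at, and 0.11 and 0.18 for Dlx2. With quantile normalisation they turned to 0.0745 (Slc32a1 1422756_at), 0.38 (Lhx6 1422262_a_at) and 0.14 (Dlx2). Dlx1 turned to −0.0043 with array weights and ran from −0.68 to 0.32 with arrays left out, below 0 without High Exploration mouse 4 or Low Exploration mouse 2. Gad2 1429589_at ran from −0.36 to 0.0895, above 0 only without High Exploration mouse 5. Slc32a1 1447573_at minus 1456457_at turned to −0.0493 with a floor and ran from −0.46 to 0.30, below 0 without High Exploration mouse 1 or 5 or Low Exploration mouse 1 or 4. The Slc6a11 pair ran from −0.27 to 0.79, below 0 without mouse 4 or 5 of either group. Gad1 against Gad2, 1.14 in High minus Low Exploration, was 0.33 with the mean over each gene's probe sets (exact permutation p = 0.540), −0.999 for the dimmer Gad1 with the brighter Gad2 probe set, −0.49 for the dimmer probe set of both, and 1.65 for the brighter Gad1 with the dimmer Gad2 probe set, the last 3 chosen after the data were seen. As deposited, no pair of the whole table passed the pair test once adjusted, so the members' count of 0 says nothing about stability. No cause was tested. No paired analysis was possible because the labels give no numbers shared between the groups.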
